A study of Ovis aries with 9 samples.

Results

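The genes described here are 8 components of the route that carries signals from receptors at the cell surface to the extracellular signal-regulated kinases (ERK). They were taken by name from the RefSeq sheep annotation as every coding transcript row of SRC, FYN, YES1, SHC1, NRAS, HRAS, MAPK3 and MAP2K1, which gave 49 transcripts, and the rows of a gene were added to 1 value. They are 8 of the 21284 protein-coding genes with a value. The RNA came from hypothalamus tissue of 9 Dolang ewes, a sheep breed, with 1 library per animal and no treatment: 3 prepuberty ewes of 120 or 121 days, 3 puberty ewes of 130 or 131 days sampled when first seen in oestrus, and 3 postpuberty ewes of 150 or 151 days. Each stage differs from the others in age as well as in reproductive state, so stage and age cannot be told apart. Values are in FPKM, sequenced fragments of a transcript relative to its length and to the library's mapped fragments, which is a scale per length on which genes can be compared.

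SRC, FYN and YES1 are membrane-bound tyrosine kinases of one family that are switched on by receptors and adhesion contacts. SHC1 is an adaptor that, once phosphorylated on tyrosine, recruits the GRB2 and SOS proteins, and SOS loads the small GTPases NRAS and HRAS with GTP. Active RAS starts the RAF, MEK and ERK kinase relay, in which MAP2K1 (MEK1) phosphorylates MAPK3 (ERK1). In neurons of the hypothalamus the relay is known to act downstream of growth factor and peptide receptors, in pituitary gonadotropes it acts downstream of the GnRH receptor, and FYN is also known for its part in myelination by oligodendrocytes.

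The libraries need a short description first, because 1 of them stands apart. The library labelled puberty, replicate 2 (Puberty 2) had a summed FPKM of 599726, against 359588 to 398109 in the other 8, and values above 0 for 15577 protein-coding genes, against 17180 to 17763. In Puberty 2, 32 genes were listed at 0 that reached 10 FPKM in every other library, and no other library had such a gene. A value of 0 is therefore written below as listed at 0. The stage comparisons of the 8 genes are given with and without Puberty 2. Of the 10 hypothalamic markers listed, 5 (AGRP, PMCH, GHRH, SIM1 and NKX2-1) were below 1 FPKM in all of the other 8 libraries. Of the rest, NPY was at 1.78 to 22.7 FPKM and POMC at 2.09 to 17.4 there, while OXT reached 4.81, AVP 3.15 and HCRT 1.68. The 10 markers summed to 10.6 to 27.6 FPKM there and to 36.1 in Puberty 2. Among the 8 libraries POMC was highest in Postpuberty 1, Puberty 3 and Postpuberty 2, at 17.4, 12.8 and 10.7 FPKM. PRL, a pituitary marker, was at 199.5, 77.8 and 74.4 FPKM in these libraries and at 0.0562 to 25.6 in the rest of the 8. The part of pituitary tissue in these values was not tested. Neuron markers summed to 434 to 1765 FPKM in the 8 libraries and to 320.5 in Puberty 2, and oligodendrocyte markers to 6496 to 14900 in all 9. The tissue is called hypothalamus as it is labelled. In bulk tissue of this kind, fewer cells of a type and less RNA per cell cannot be told apart.

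MAPK3 was the most abundant of the 8 genes and YES1 the least. Over the 8 libraries other than Puberty 2 the mean levels ran from 86.5 FPKM for MAPK3, through 35.7 for FYN, 31.8 for MAP2K1, 11.4 for HRAS, 4.43 for SRC, 1.54 for NRAS and 1.21 for SHC1, to 0.840 for YES1. MAPK3 exceeded FYN in all 8 libraries, and its lowest library lay above the highest of FYN. FYN and MAP2K1 were not separated, since FYN was the higher in 6 of 8 libraries. HRAS lay below MAP2K1 and above SRC in all 8, with no overlap of ranges. SRC exceeded NRAS in each of the 8, although their ranges overlapped, whereas NRAS exceeded SHC1 in 6 and SHC1 exceeded YES1 in 5, so the lowest 3 genes have no fixed order.

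**Figure D1:**
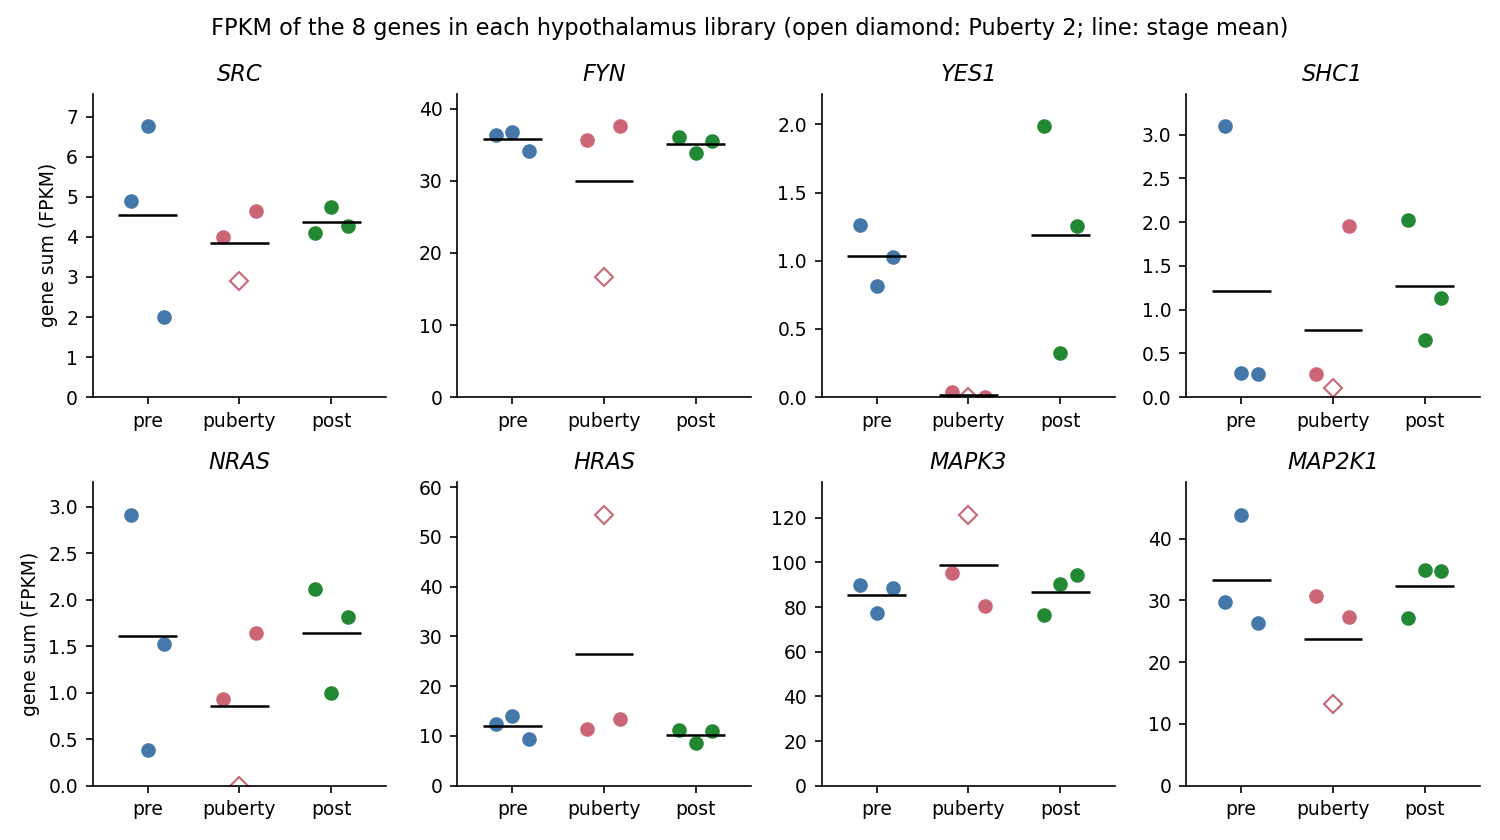
Gene sums in FPKM (vertical axis, from 0) of each of the 8 genes in the 9 libraries, by stage; each point is 1 animal, the line is the stage mean and the open diamond is Puberty 2. YES1 is at or near 0 in the 3 puberty libraries, and Puberty 2 lies far from the other libraries for FYN (16.6), HRAS (54.5) and MAP2K1 (13.2).

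FYN, on chromosome 8 (25880748 to 26096753 in ARS-UI_Ramb_v3.0, gene ID 101109363), was the steadiest of the 8 genes outside Puberty 2. It measured 36.3, 36.8 and 34.2 FPKM in Prepuberty 1 to 3, 35.7, 16.6 and 37.6 in Puberty 1 to 3, and 36.1, 33.8 and 35.5 in Postpuberty 1 to 3. Its coefficient of variation over the 8 libraries was 3.57%, against a median of 17.7% among the 4271 genes with a mean of at least 10 FPKM. Only Puberty 2 left the narrow band of 33.8 to 37.6 FPKM. The log2 fold change of FYN at puberty against prepuberty was accordingly -0.33 (SE 0.31, adjusted p = 0.838 by limma) with Puberty 2 and 0.03 (SE 0.13) without it.

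SRC, on chromosome 13 (66273194 to 66327205, gene ID 101103084), varied most among prepuberty animals. Its level was 4.89, 6.77 and 2.01 FPKM at prepuberty, 4.01, 2.90 and 4.65 at puberty, and 4.10, 4.74 and 4.28 at postpuberty. Both the highest and the lowest values were thus prepuberty libraries, and the other 2 stages lay between them. SRC averaged 4.55 ± 2.40 FPKM at prepuberty, 3.85 ± 0.884 at puberty and 4.38 ± 0.328 at postpuberty (SD, n = 3 each), and the puberty difference of -0.11 on the log2 scale (SE 0.36) was smaller than its error. Without Puberty 2 that difference was 0.04 (SE 0.37).

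YES1, on chromosome 23 (36043848 to 36108082, gene ID 101104362), was the only gene of the 8 whose puberty libraries lay below those of both other stages. It measured 1.26, 0.812 and 1.03 FPKM at prepuberty, 0.0414 in Puberty 1, listed at 0 in Puberty 2 and Puberty 3, and 1.99, 0.326 and 1.26 at postpuberty. Puberty did not overlap with either other stage, also without Puberty 2, since Puberty 3 is likewise listed at 0, whereas the prepuberty values lay within the postpuberty range. On log2(FPKM + 1), YES1 differed by -1.0 (SE 0.29) between puberty and prepuberty and by 1.03 (SE 0.29) between postpuberty and puberty, with unadjusted limma p-values of 0.00665 and 0.00550. After adjustment over all genes the limma p-values were 0.838 and 0.780, so neither difference passed the threshold. The exact permutation test gave 0.1 for both, the smallest two-sided value that 3 libraries against 3 allow. Without Puberty 2 the differences were -0.99 and 1.02.

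The YES1 values are low, and the scale matters for them: with 0.1 in place of 1 added before the logarithm the differences became -3.32 and 3.25. Each of the 2 separations of YES1 was also found in other genes, and no share is given for both at once. Every puberty library was lower than every prepuberty library for 2.84% of the 14238 genes tested (4.58% without Puberty 2), and every postpuberty library was higher than every puberty library for 5.25% (7.93% without Puberty 2). YES1 shares 1565 bases of its genomic span with ENOSF1, which was at 0.223 to 3.24 FPKM in the 8 libraries and listed at 0 in Puberty 2, and whether the authors counted by strand is not given in the sources used here.

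Within the SRC family, FYN supplied most of the message in every library. FYN made up 82.9% to 91.8% of the summed FPKM of SRC, FYN and YES1 in the 8 libraries and 85.1% in Puberty 2, SRC 5.40% to 15.2% and 14.9%. YES1 contributed 1.83% to 2.97% at prepuberty, at most 0.104% at puberty and 0.838% to 4.71% at postpuberty. The sum of the 3 genes was 37.2 to 44.4 FPKM in the 8 libraries and 19.5 in Puberty 2, so that in Puberty 2 the family was lower in level but similar in composition.

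**Figure D2:**
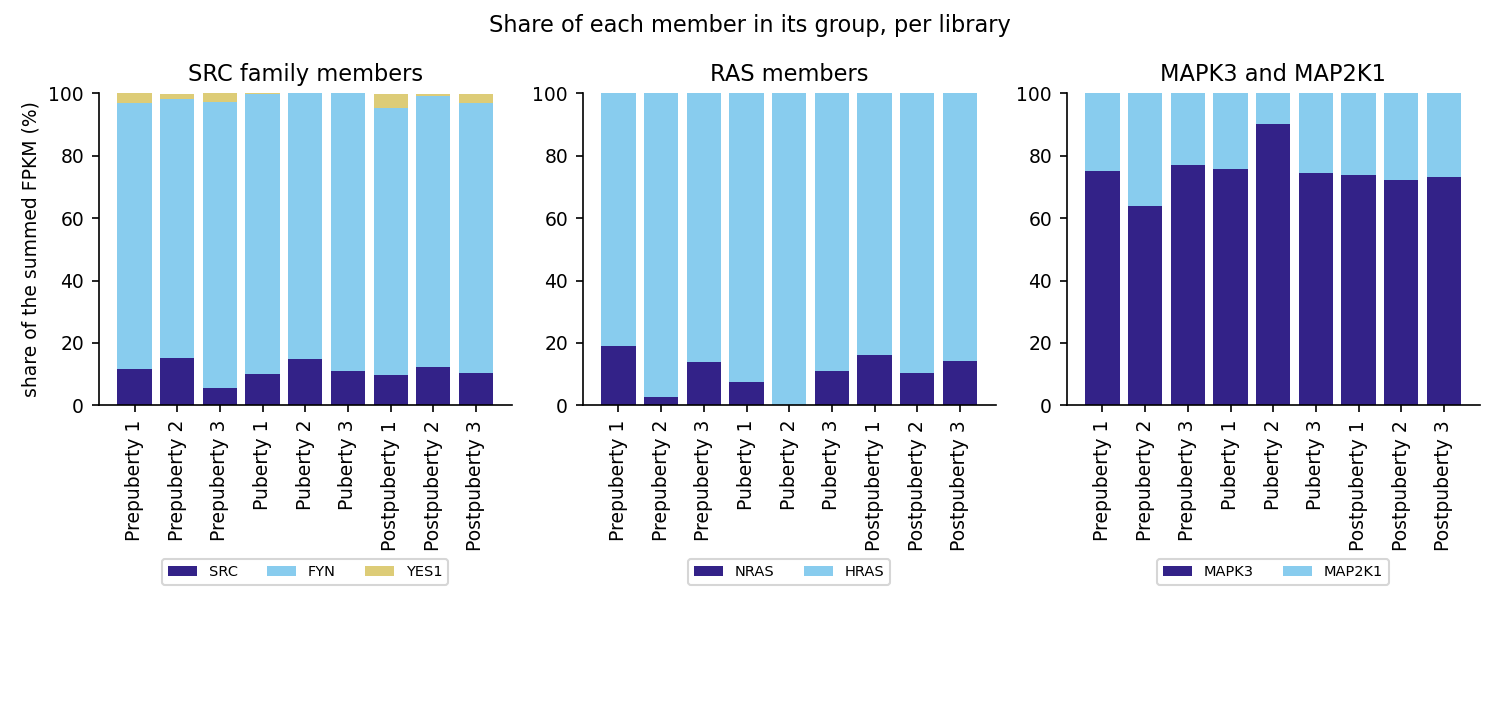
Share of each gene (vertical axis, percent) in the summed FPKM of its group in each of the 9 libraries: SRC, FYN and YES1; NRAS and HRAS; MAPK3 and MAP2K1. FYN holds at least 82.9% of its group throughout, HRAS at least 81.1%, and Puberty 2 differs by having 100% HRAS and 90.2% MAPK3.

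SHC1, on chromosome 1 (105187238 to 105197763, gene ID 101113548), had high and low animals that did not follow the stages. It measured 3.10, 0.275 and 0.269 FPKM in Prepuberty 1 to 3, 0.259, 0.106 and 1.95 in Puberty 1 to 3, and 2.02, 0.658 and 1.13 in Postpuberty 1 to 3. Prepuberty 1, Puberty 3 and Postpuberty 1 exceeded the rest of their stages, and the highest of the 8 was 11.9 times the lowest. The stage differences were between -0.23 and 0.46 on the log2 scale with an SE of 0.53, all within the error. Without Puberty 2 the SHC1 differences were 0.04 for puberty against prepuberty and 0.19 for postpuberty against puberty (SE 0.60 each).

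NRAS, also on chromosome 1 (92089068 to 92098832, gene ID 101102438), showed a similar spread. Its single transcript, XM_004002359.5, was at 2.92, 0.382 and 1.52 FPKM at prepuberty, at 0.930, listed at 0, and at 1.64 at puberty, and at 2.11, 1.0 and 1.82 at postpuberty. Prepuberty held both the highest and, outside Puberty 2, the lowest library. NRAS differed by -0.47 (SE 0.46) at puberty against prepuberty and by 0.60 (SE 0.46) at postpuberty against puberty, and by -0.08 and 0.20 without Puberty 2. The NRAS span is not free of overlap with other annotation, so the assignment of its reads is uncertain.

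HRAS, on chromosome 21 (47141494 to 47144408, gene ID 101104357), had the largest departure of a single library. The gene was at 12.5, 13.9 and 9.41 FPKM at prepuberty, 11.3, 54.5 and 13.5 at puberty, and 11.1, 8.63 and 11.0 at postpuberty. Puberty 2 was the high library, and the other 8 stayed between 8.63 and 13.9. All 3 postpuberty libraries lay below all 3 puberty libraries, by a margin that is narrow without Puberty 2, since Puberty 1 was at 11.3 and Postpuberty 1 at 11.1.

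The HRAS difference between postpuberty and puberty was -0.94 on the log2 scale (SE 0.51, unadjusted p = 0.0995 and adjusted p = 0.780 by limma) and -0.25 (SE 0.21) without Puberty 2. Such an ordering, with every postpuberty library lower, was found for 2.07% of all genes tested, and for 6.08% without Puberty 2. At puberty against prepuberty the HRAS difference was 0.75 (SE 0.51) with Puberty 2 and 0.06 (SE 0.21) without it. HRAS, like YES1, therefore separated 2 stages, but most of its size came from 1 library.

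HRAS accounted for 81.1% to 97.3% of the HRAS and NRAS message in the 8 libraries and for 100% in Puberty 2, where NRAS was listed at 0.

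MAPK3, on chromosome 24 (26693224 to 26700008, gene ID 101123008), had overlapping stages. Its single transcript, XM_015104158.3, was at 90.0, 77.3 and 88.3 FPKM at prepuberty, 95.3, 121 and 80.3 at puberty, and 76.4, 90.4 and 94.2 at postpuberty. Puberty 2 was the highest library and Postpuberty 1 the lowest. MAPK3 averaged 85.2 ± 6.88 FPKM at prepuberty, 99.0 ± 20.8 at puberty and 87.0 ± 9.38 at postpuberty (SD, n = 3 each), and 87.8 ± 10.6 over the 2 puberty libraries other than Puberty 2. The log2 differences of MAPK3 were 0.20 and -0.17 (SE 0.24) around puberty with Puberty 2. Without Puberty 2 they were 0.04 and -0.01 (SE 0.17). They turned to -0.03 and 0.02 when each library was scaled to an equal total, so no direction can be given.

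MAP2K1, on chromosome 7 (13248241 to 13321566, gene ID 101123635), measured 29.7, 43.9 and 26.3 FPKM at prepuberty, 30.7, 13.2 and 27.3 at puberty, and 27.1, 34.97 and 34.7 at postpuberty. Prepuberty 2 was the highest library and Puberty 2 the lowest, and the stages overlap. The difference at puberty against prepuberty was -0.52 (SE 0.35, adjusted p = 0.838 by limma), and -0.16 (SE 0.24) without Puberty 2. MAP2K1 shares 24158 bases of its span with SNAPC5, which was high in Puberty 2, at 21.5 FPKM against 7.26 to 9.81 elsewhere.

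The ratio of the kinase MAPK3 to MAP2K1, the kinase that activates it, was highest in Puberty 2. MAPK3 exceeded MAP2K1 by 1.76 to 3.35 times in the 8 libraries and by 9.22 times in Puberty 2. As a share of the 2 genes together, MAPK3 took 63.8% to 77.0% in the 8 libraries and 90.2% in Puberty 2, while their sum stayed between 103.5 and 134.6 FPKM in all 9. By stage the share averaged 72.0% ± 7.16 at prepuberty, 80.2% ± 8.72 at puberty and 73.0% ± 0.846 at postpuberty (SD, n = 3 each), and 75.1% ± 0.689 at puberty without Puberty 2 (n = 2).

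**Figure D3:**
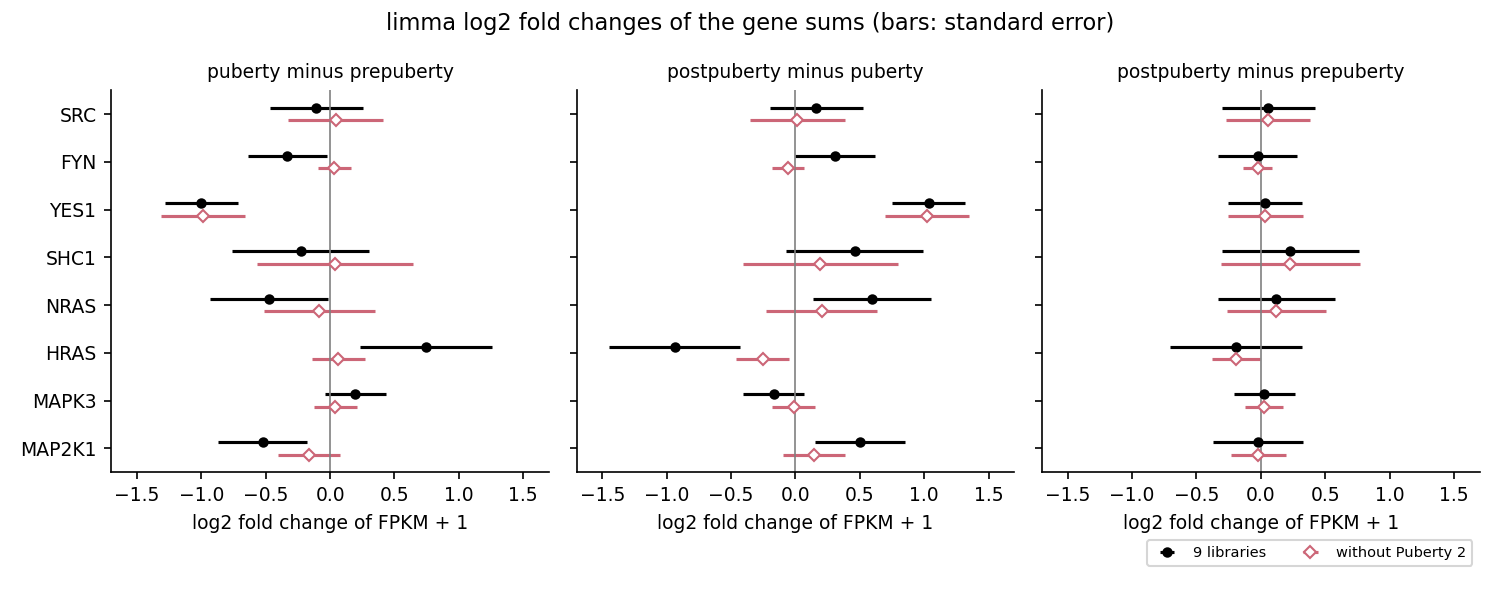
log2 fold changes of FPKM + 1 (horizontal axis) for the 8 genes in the 3 stage comparisons, from the limma fit of 9 libraries (filled circles) and of 8 libraries without Puberty 2 (open diamonds), with the standard error as bars. YES1 keeps its size in both fits (-1.0 and -0.99, then 1.03 and 1.02), whereas HRAS goes from 0.75 to 0.06 and from -0.94 to -0.25.

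Of the 8 genes, 0 were called in any of the 3 comparisons at an adjusted p below 0.05 with a log2 fold change of 1 or more in either direction. The same limma fit called 0 of all 14238 genes in each comparison (0.0%), with smallest adjusted p-values of 0.760, 0.676 and 0.699 for puberty against prepuberty, postpuberty against puberty, and postpuberty against prepuberty. At an unadjusted p below 0.05 the fit had 1.82%, 2.14% and 0.815% of all genes, and of the 8 genes YES1 alone in the first 2 comparisons and 0 in the third. Without Puberty 2 the calls were again 0, with 236, 300 and 265 of 14209 genes at an unadjusted p below 0.05.

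Counted by libraries that do not overlap, 1 of the 8 genes (YES1) separated puberty from prepuberty, against 5.16% of all genes. Between postpuberty and puberty 2 of the 8 did (YES1 higher, HRAS lower), against 7.32% of all genes, and between postpuberty and prepuberty 0 did, against 4.57%. Without Puberty 2 the first 2 counts were again 1 and 2, against 11.7% and 14.0% of all genes. The median log2 fold change of the 8 genes was -0.28, 0.38 and 0.03 in the 3 comparisons, beside -0.14, 0.19 and 0.05 over all genes tested. Without Puberty 2 it was 0.04, 0.08 and 0.03, beside 0.02, 0.03 and 0.05. The first 2 comparisons share the puberty libraries, so their opposite signs are not separate results.

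Below the gene sums, most of the 49 transcripts were hardly present: 9 were at 0 in all 9 libraries and 16 passed the filter of a mean FPKM of at least 0.5 in at least 1 stage. Of the 27675 coding transcripts tested, limma called 0 in each comparison (0.0%), and so 0 of these 16. Among the 16, 8 were listed at 0 in Puberty 2 and 5 had their highest value there. A transcript estimate divides reads that several isoforms share, so the split between isoforms of 1 gene is less certain than their sum.

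FYN was made of 2 main transcripts whose shares varied while their sum stayed level outside Puberty 2. XM_027972356.3 measured 22.6, 25.5 and 22.7 FPKM at prepuberty, 24.8, 16.6 and 30.8 at puberty, and 21.6, 26.7 and 24.2 at postpuberty. XM_027972358.3 measured 11.0, 9.15 and 9.59 FPKM at prepuberty, 7.17, listed at 0, and 3.92 at puberty, and 12.8, 6.20 and 8.53 at postpuberty. Its puberty libraries lay below all prepuberty libraries but overlapped those of postpuberty, where Postpuberty 2 was at 6.20. Puberty and prepuberty did not overlap for 7.3% of all coding transcripts tested.

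XM_027972358.3 thus supplied 24.9% to 30.2% of FYN at prepuberty, 20.1%, 0% and 10.4% at puberty and 18.3% to 35.5% at postpuberty. On the log2 scale it differed by -1.67 (SE 0.67) at puberty against prepuberty and by 1.52 (SE 0.67) at postpuberty against puberty, with unadjusted limma p-values of 0.0336 and 0.0486 and adjusted p-values of 0.838 and 0.788. Without Puberty 2 the differences of this FYN transcript, XM_027972358.3, were -0.78 and 0.63 (SE 0.34 each). In Puberty 2, XM_027972356.3 was practically the whole of FYN.

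**Figure D4:**
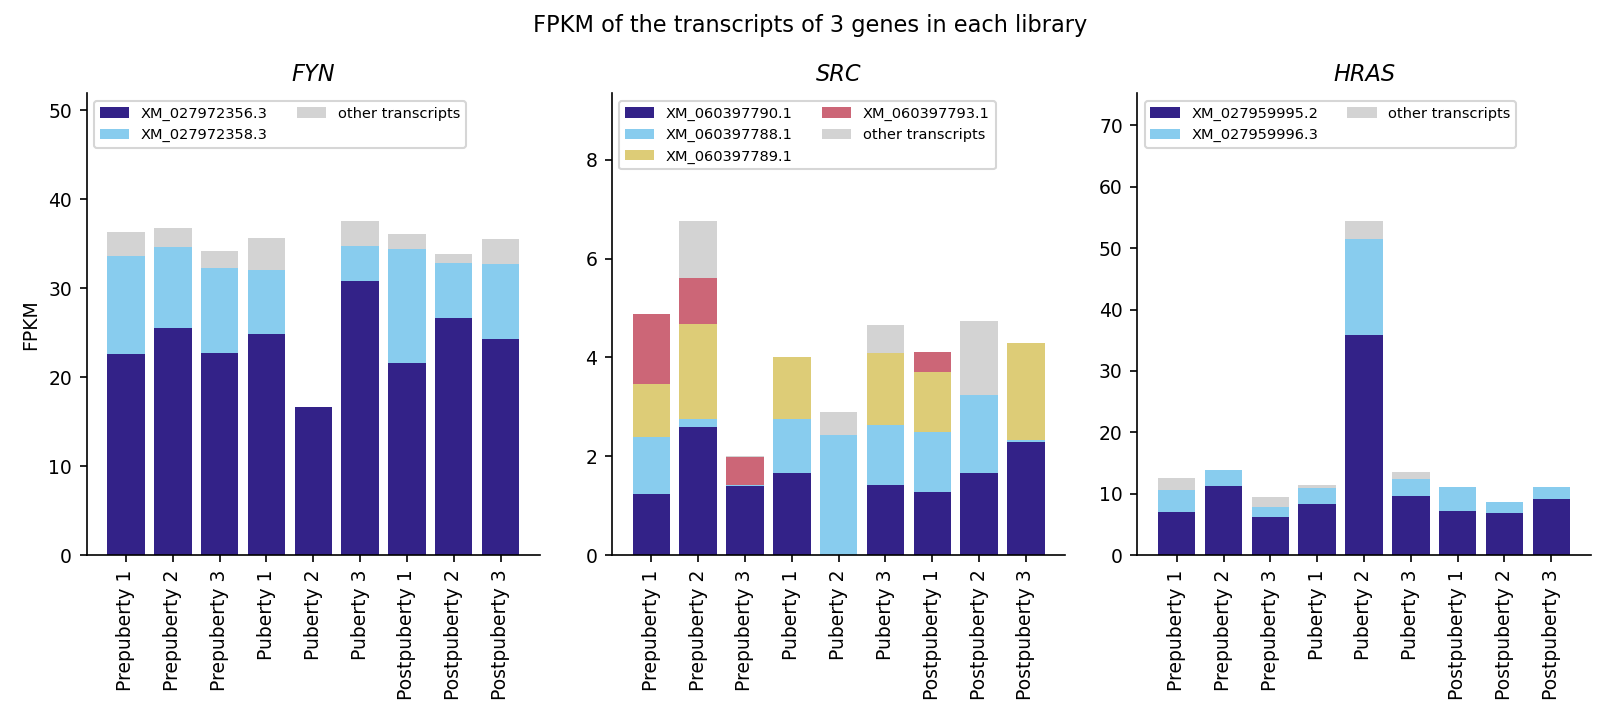
FPKM of the transcripts (vertical axis, stacked, from 0) of FYN, SRC and HRAS in each of the 9 libraries; grey stands for all other transcripts of the gene. The total of FYN is level outside Puberty 2 while the share of XM_027972358.3 ranges from 10.4% to 35.5% there, and the SRC transcript XM_060397793.1 appears in the 3 prepuberty libraries and in Postpuberty 1.

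SRC was spread over several transcripts, and the library decided which. XM_060397790.1 was the most abundant, at 1.23 to 2.58 FPKM in the 8 libraries and listed at 0 in Puberty 2. XM_060397789.1 reached 1.96 FPKM but was listed at 0 in Prepuberty 3, Puberty 2 and Postpuberty 2, and XM_060397788.1 ranged from 0.0219 to 1.58 FPKM in the 8 libraries and was 2.42 in Puberty 2. XM_060397793.1, the SRC transcript that the study itself names, was at 1.42, 0.947 and 0.571 FPKM at prepuberty, listed at 0 in all 3 puberty libraries, and at 0.405, then listed at 0 in both others, at postpuberty. The prepuberty libraries lay above all others for this transcript. Puberty and prepuberty did not overlap, in either direction, for 7.3% of all coding transcripts tested, and no such share is given for postpuberty against prepuberty. XM_060397793.1 passed the filter on low values only through prepuberty, where it averaged 0.980 FPKM, so no test of it is given.

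The remaining genes add little at this level. HRAS had 2 main transcripts, XM_027959995.2 at 6.24 to 11.3 FPKM in the 8 libraries and 35.8 in Puberty 2, and XM_027959996.3 at 1.62 to 3.96 and 15.6, so both were high in that library. The minor XM_042237730.2 was at 1.85, listed at 0, and 1.55 FPKM at prepuberty, 0.449, 3.04 and 1.14 at puberty, and listed at 0 in all 3 postpuberty libraries. Of the 12 YES1 transcripts, 4 held at least 10% of the gene, and the library differed for each. XM_015103642.4 alone passed the filter, through postpuberty, and held 29.8% of YES1 with at most 0.780 FPKM, in Postpuberty 3. XM_060405410.1 held 16.5% and was highest in Prepuberty 1 (0.902), XM_060405414.1 held 16.1% and was highest in Postpuberty 1 (0.907), and XM_060405409.1 held 13.1% and was highest in Prepuberty 2 (0.538). All 4 were listed at 0 in Puberty 2 and Puberty 3. Of the 9 SHC1 transcripts, 4 likewise held at least 10% of the gene. XM_060414800.1 alone passed the filter, at 0.218 to 1.13 FPKM in the 8 libraries and 0.106 in Puberty 2, and was the only one of the 4 above 0 in every library. XM_042254862.2 was highest in Postpuberty 3 (0.909), whereas XM_015092276.4 and XM_060414801.1 were highest in Prepuberty 1 (0.820 and 0.782), where SHC1 itself peaked. Of the 2 MAP2K1 transcripts, XM_015096833.3 held the whole value and XM_012180802.5 was at 0 throughout.

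In Puberty 2 the short genes HRAS and MAPK3 lay above the range of the other 8 libraries. The longer genes FYN, MAP2K1 and SHC1 lay below that range, whereas SRC and YES1 lay within it. The log2 value of Puberty 2 minus the mean of the other 8 libraries was 2.17 for HRAS (span 2.9 kb), higher than for 98.1% of the genes tested. It was 0.49 for MAPK3 (6.8 kb). It was -0.44 for SRC (54.0 kb), -0.78 for YES1 (64.2 kb), -1.19 for MAP2K1 (73.3 kb) and -1.06 for FYN (216 kb), and -0.86 for SHC1 (10.5 kb). NRAS, with 9.8 kb, went against this order at -1.28 and also lay below the range of the other 8 libraries. Over all genes the median was 0.17 for the 3875 genes under 10 kb, -0.41 for those of 10 to 30 kb, -0.77 for those of 30 to 100 kb and -0.95 for the 2415 of at least 100 kb. What produced this shift was not tested.

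**Figure D5:**
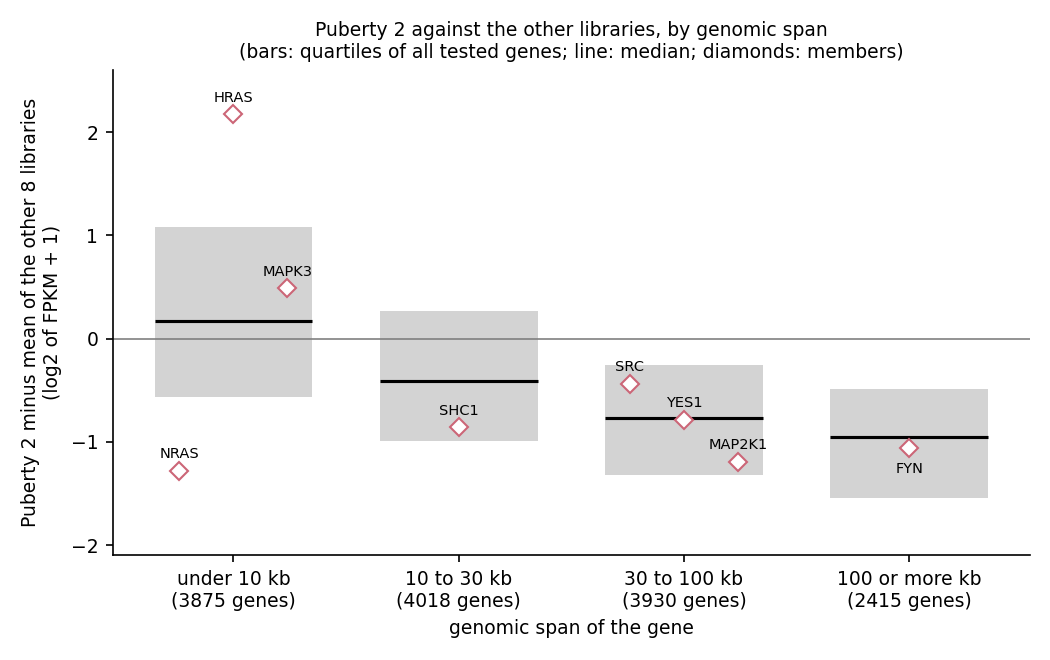
Puberty 2 minus the mean of the other 8 libraries on log2(FPKM + 1) (vertical axis) by genomic span of the gene (horizontal axis, 4 classes with their number of genes); grey bars are the quartiles of all genes tested, black lines the medians and diamonds the 8 genes. The medians go down from 0.17 to -0.95 with span, and HRAS (2.17) and NRAS (-1.28) lie outside the quartiles of the shortest class.

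The other genes of the route were read from a list of 61 receptors, adaptors, exchange factors, kinases and inhibitors, of which 60 had a value and 58 passed the filter. Limma called 0 of the 58 in each comparison, with 2, 0 and 0 at an unadjusted p below 0.05. The list's median log2 fold change was -0.30, 0.42 and 0.03 in the 3 comparisons, and 0.05, 0.05 and 0.03 without Puberty 2. Stages did not overlap for 3 of the 58 between puberty and prepuberty (5.17%, beside 5.16% of all genes), 2 between postpuberty and puberty (3.45%, beside 7.32%) and 2 between postpuberty and prepuberty (3.45%, beside 4.57%). The list's share was thus near or below that of all genes in each comparison.

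The most abundant genes named from the list were inhibitors. PEA15, which holds ERK in the cytoplasm, averaged 438 FPKM over the 8 libraries, and PEBP1, which restrains the first kinase of the relay, 319.7. The paralog MAP2K2 averaged 43.8 FPKM there, against 31.8 for MAP2K1. PTPN11, a phosphatase needed for full RAS activation, averaged 43.1 FPKM and the adaptor GRB2 27.5. In Puberty 2, MAP2K2 stood at 97.2 FPKM, above the range of the other libraries, whereas MAP2K1 lay below it.

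SPRED2, an inhibitor of the relay, was at 4.70, 7.24 and 5.62 FPKM at prepuberty, 3.03, listed at 0, and 3.21 at puberty, and 2.77, 6.05 and 5.04 at postpuberty. It was lower in every puberty than in every prepuberty library, by -1.40 on the log2 scale (SE 0.54, adjusted p = 0.838 by limma) and by -0.72 without Puberty 2. GRB2, the adaptor that SHC1 recruits, was at 5.27, 28.8 and 21.1 FPKM at prepuberty, 21.4, 0.0199 and 33.0 at puberty, and 33.6, 34.7 and 41.9 at postpuberty. Every postpuberty library of GRB2 lay above every other library, with differences of 2.03 (SE 1.17) against puberty and 1.23 (SE 1.17) against prepuberty. The margin over puberty was narrow, since Postpuberty 1 was at 33.6 and Puberty 3 at 33.0. Prepuberty 1, at 5.27, lay far below the other prepuberty libraries. Neither of the GRB2 differences passed, at adjusted p-values of 0.780 and 1 by limma. Without Puberty 2 the GRB2 difference was 0.44 against puberty and still 1.23 against prepuberty.

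Of the other list genes with the smallest p-values, the phosphatase PTPRA, which activates SRC kinases, ranged from 1.21 to 29.4 FPKM over the 8 libraries and stood at 0.0207 in Puberty 2. The ERK phosphatase DUSP6 was at 15.3, 8.73 and 11.0 FPKM at prepuberty and at 8.88, 1.46 and 9.29 at postpuberty, a log2 difference of -0.98 (SE 0.54). The receptor FGFR1 differed by 0.57 (SE 0.50) between the same stages, with 1 library, Postpuberty 1, at 21.8 FPKM. GNRHR was at most 0.121 FPKM in any library and did not enter the tests.

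Some of the 8 genes correlated with summed markers of cell types over the 8 libraries other than Puberty 2. Of the 10 values below, 9 were smaller in size when Puberty 2 was included. Of 88 pairs of a gene and a marker list, the 10 with the largest correlations across libraries (Pearson r on log2 values, n = 8) involved NRAS, SHC1 and MAP2K1. They were picked by size, so they are large by selection, carry no test and do not assign a gene to a cell type. NRAS went with the summed markers of endothelium (0.97), astrocytes (0.90), oligodendrocytes (0.84) and microglia (0.78), and over all 9 libraries these values were -0.39, 0.38, 0.52 and 0.37. SHC1 went with astrocytes (0.86), endothelium (0.80), hypothalamus (0.80) and, inversely, neurons (-0.74), which became 0.60, -0.11, 0.39 and -0.22 over all 9. MAP2K1 went inversely with oligodendrocytes (-0.87) and endothelium (-0.74), and over all 9 with values of -0.52 and -0.94. The endothelial list, all 5 of 5 genes above 0 in every library, summed to 81.1 to 163 FPKM at prepuberty, 95.6 and 126 in Puberty 1 and Puberty 3, and 96.5 to 160 at postpuberty. Its sum of 653 FPKM in Puberty 2 was almost all CLDN5, at 624 FPKM, whereas PECAM1, FLT1 and CDH5 were lower there than in any other library. The 6 astrocyte markers summed to 2819 to 7141, 3963 to 6105 and 2767 to 6136 FPKM at the 3 stages, and the 8 oligodendrocyte markers to 6496 to 14900, 9664 to 11842 and 6730 to 14695. The libraries share depth and tissue composition, and the part of cell make-up in the levels was not tested.

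Between postpuberty and puberty, where the libraries of YES1 and of HRAS did not overlap, the sums of 2 marker lists did not overlap either. Those of all other marker lists overlapped. The 3 measured ependymal markers summed to 2.33 to 4.20 FPKM at postpuberty and 5.63 to 16.1 at puberty. Of them only FOXJ1 separated the 2 stages by itself, at 0.382 to 2.99 and 3.55 to 11.8 FPKM. RSPH1 and CFAP43 overlapped, with CFAP43 below 1 FPKM throughout. The 4 thalamic markers summed to 5.70 to 14.9 at postpuberty and 3.37 to 5.58 at puberty, a narrow margin. None of the 4 separated the stages by itself. RORA was below 1 FPKM throughout and LHX9 was listed at 0 in Puberty 2. The 3 measured choroid plexus markers summed to 255 to 7616 FPKM at puberty, against 9.07 to 339 at prepuberty and 37.1 to 726 at postpuberty. These sums were almost all TTR. The other 2 markers, KL and AQP1, were highest in Puberty 3, at 9.17 and 13.3 FPKM. They were below 1 FPKM in Puberty 1 and listed at 0 in Puberty 2, so the puberty range does not hold across the list. The part of these cells in the YES1 and HRAS values was not tested.

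The 8 genes were not alike in their pattern over libraries. SHC1 and NRAS went together (r = 0.83 over the 8 libraries and 0.83 over 9), and so did SRC and MAP2K1 (0.71 and 0.65). FYN and HRAS gave 0.96 over the 8 libraries, across the narrow range of FYN, and -0.92 over all 9. Puberty 2 thus turned the sign of that pair.

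Over all genes tested, those whose pattern was most like a member over the 8 libraries were named from the 2 highest r on log2(FPKM + 1). For YES1 these were PCNX4 (0.97) and ACADM (0.94), and both were at their lowest 3 values in the puberty libraries: PCNX4 was at 1.37, 0.200 and 1.64 FPKM there against 2.02 to 3.71 elsewhere. For NRAS they were VWF and FA2H (both 0.98), for SHC1 CDCP1 (0.99) and ZNHIT2 (0.98), and for SRC LOC101117269 and TGOLN2 (both 0.96). For FYN they were FRMD3 and HELZ (both 0.97), for HRAS MGAT5B (0.98) and FYN, for MAPK3 RETREG3 and ILF2 (both 0.92), and for MAP2K1 AJAP1 (0.97). The highest of 14238 values of r over 8 points are high by selection and carry no test.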

How the data were processed

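Poly(A) RNA of 9 hypothalamus samples was sequenced as paired ends. Reads were trimmed by the authors (Trimmomatic), aligned with HISAT2 to the sheep genome ARS-UI_Ramb_v3.0, and assembled, merged and quantified transcripts with StringTie. The deposited values, although their table is named as raw counts, are FPKM per transcript, as the values are not whole numbers, so a count test was not applied. Mapped reads, from the study's own statistics, ranged from 19347227 to 23966519 per library. Stage and replicate number were taken from the sample labels; the numbers name different animals.

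Of 115108 rows, 76684 carry coding RefSeq identifiers, and 76682 of these matched the RefSeq gene table, which also gave positions. They were summed per gene. Transcripts that StringTie assembled without a RefSeq name held 12.4% to 17.4% of the FPKM of a library, and reads assigned to them are outside the sums. Stages were compared with limma 3.58.1 (R 4.3.3, with a variance trend) on log2(FPKM + 1), with all 9 libraries in 1 fit without scaling between libraries, for the 14238 genes whose mean reached 0.5 FPKM in at least 1 stage. Such a fold change understates that of genes with low values. Two-sided p-values were adjusted by Benjamini-Hochberg over all genes, and for transcripts over the 27675 coding transcripts kept. A gene was called at an adjusted p below 0.05 with a log2 fold change of 1 or more in either direction. Exact permutation tests of 3 libraries against 3 used scipy 1.17.1. The fit was tested on simulated data. Other software was Python 3.11.15, numpy 2.4.6, pandas 2.3.3 and matplotlib 3.10.9.

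The members, the pathway and marker lists and the tests were chosen with earlier results of these data known. Transcripts were named if they were the most abundant of their gene or held at least 10% of it, together with 1 SRC transcript that the study names; transcripts described for stages that do not overlap, and a minor one of HRAS, were chosen after their values were seen. Pathway genes were named by the 3 smallest p-values per comparison, the 6 highest means and the paralogs of the members. Some genes that these rules name are not reported here. No sequence is shown. Read counts, corrected values and the authors' own comparisons were not used here.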

Additional observations from a re-analysis of the deposited data

How the results depend on the processing

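Puberty 2, the low levels of YES1, SHC1 and NRAS, and 3 animals per stage set the limits here, and mapped reads behind single FPKM values are unknown. Of 24 member comparisons, 9 kept their direction under all 17 alternatives, and the smallest adjusted p among them was 0.198, for YES1 at puberty against prepuberty. YES1 kept its direction around puberty throughout, from -3.32 to -0.92 and from 0.77 to 3.25, as did HRAS, from 0.06 to 1.15 and from -1.34 to -0.25. The cause of the reversals was not tested. With limma's array quality weights, which gave Puberty 2 a weight of 0.0653 and Prepuberty 3 8.13, 4 genes were called at puberty against prepuberty and 1 at postpuberty against puberty, none of them a member or a gene of the pathway list; the differences then became 0.64 for SRC, 0.058 for FYN, 0.33 for SHC1 and 0.075 for MAP2K1 at puberty against prepuberty, -0.031 for FYN at postpuberty against puberty, and 0.027 for FYN, 0.061 for HRAS and 0.25 for MAP2K1 at postpuberty against prepuberty. Scaling to equal totals gave MAPK3 -0.030, 0.017 and -0.013 in the 3 comparisons, upper quartile scaling gave it -0.024 at postpuberty against prepuberty, and a pseudocount of 0.1 gave YES1 -0.073 there. Without Puberty 2, 1659 genes in place of 734 did not overlap between puberty and prepuberty, and 1995 in place of 1042 between postpuberty and puberty; a stage of fewer libraries separates more easily.

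Leaving out 1 library in turn, the difference at puberty against prepuberty ranged from -0.50 to 0.19 for SRC, -0.53 to 0.034 for FYN and -0.67 to 0.33 for SHC1. At postpuberty against puberty it ranged from -0.059 to 0.51 for FYN. At postpuberty against prepuberty the range was -0.33 to 0.35 for SRC, -0.057 to 0.0018 for FYN, -0.23 to 0.36 for YES1, -0.053 to 0.79 for SHC1, -0.27 to 0.48 for NRAS, -0.041 to 0.12 for MAPK3 and -0.17 to 0.19 for MAP2K1.

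The replicate numbers do not pair the animals: same-numbered libraries correlated between -0.31 and 0.51 over 9 pairs, and 3 of 9 libraries matched their own number best. With the replicate number as a block, limma called 0 genes in each comparison, and the smallest adjusted p of YES1 was 0.794.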
